A study of Mus musculus with 12 samples.

Results

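This comparison set the livers of first-generation (G1) mTR KO mice against those of G1 mTERT KO mice, that is, loss of the RNA part of telomerase against loss of its protein part. The arrays were chosen by their sample titles: the 3 animals titled mTR KO G1 and the 3 titled mTERT KO G1, 6 of the 12 arrays in the study. Each animal was measured on 1 one-colour Affymetrix array, and every difference is given as mTR KO minus mTERT KO on the log2 scale. All 12 animals were C57BL/6J males described as matched for age, with no age stated. The labels call the animals knock-outs without giving the deleted exons, and name no treatment. The other 6 arrays were wild type (WT), 3 from the mTR line and 3 from the mTERT line. KO and WT animals of a set were littermates within a line, so the mTR KO and mTERT KO animals were not littermates of each other. A difference between them therefore holds both the deleted gene and the line. The mTR WT minus mTERT WT difference is given beside it for that reason.

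Telomerase adds repeats to chromosome ends. Its reverse transcriptase is mTERT, the product of Tert, and its template is the RNA mTR, the product of Terc, which is held with proteins such as dyskerin (Dkc1). Mice carry long telomeres, and first-generation nulls are known to show little telomere loss, so a G1 comparison is often used to look for roles of either subunit apart from telomere length. Adult liver is mostly made of hepatocytes that rarely divide, with sinusoidal endothelium, Kupffer cells (the resident macrophages) and stellate cells between them.

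The deposited values covered 28853 probe sets (probes), of which 20197 passed a filter at the 30th percentile of the mean over all arrays, a log2 value of 3.898. A background level of 4.34 was set from the brightest olfactory receptor probes, whose genes serve smell. Array medians lay between 4.37 and 4.43. The mean of 19 hepatocyte identity genes, among them those of albumin and apolipoproteins, was 11.3 to 11.4 on every array. Arrays numbered 1 stood apart in both KO groups: on the first principal component of the 6 KO arrays, which held 69.6% of the variance, they scored -38.1 (mTERT KO) and -44.7 (mTR KO) and the other 4 arrays 18.3 to 22.5. In both of those arrays pancreas acinar genes were also present, at a mean of 10.9 in mTR KO 1 and 9.39 in mTERT KO 1 against 3.79 to 4.0 in the other KO arrays. Among the WT arrays the acinar mean was 6.58 in mTR WT 2, 6.97 in mTERT WT 1 and 8.59 in mTERT WT 2. The other WT arrays, mTR WT 1 among them, read 3.83 to 3.88. The median WT difference of these genes was -1.67. The part of pancreas RNA in the results was not tested beyond leaving out arrays.

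No probe separated the KO groups after adjustment. Limma called 0 of 20197 probes (0%) at an adjusted p under 0.05, with 384 (1.9%) at an unadjusted p under 0.05, 155 of them higher (0.767%) and 229 lower (1.13%) in mTR KO. With the array number as a block it also called 0 (0%), with 1142 (5.65%) at an unadjusted p under 0.05, 433 higher (2.14%) and 709 lower (3.51%). The smallest adjusted p was 0.167 without the block and 0.085 with it. The 3 values of each KO group did not overlap at 532 probes in the higher direction (2.63%) and 659 in the lower direction (3.26%). Together these were 1191 probes (5.9%), beside 1201 (5.95%) between the WT groups, 730 higher (3.61%) and 471 lower (2.33%). Limma called 0 probes between the WT groups too, with 525 (2.6%) at an unadjusted p under 0.05. The KO difference was above 0 at 48.2% of probes and had the same sign in all 3 same-numbered pairs at 26%. It reached 2-fold at 9 probes on the higher side (0.0446%) and 8 on the lower (0.0396%), and at 2 of these (0.0099%), Thrsp and Slc25a30, the groups did not overlap. Half-widths of the 95% intervals had a median of 0.307, and the interval lay within a 2-fold difference for 96.7% of probes. Differences of 2-fold or more thus lay outside the interval at most probes, and smaller ones within it were not excluded. An exact permutation test of 3 against 3 cannot go below a p of 0.10, so none is given for single genes.

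**Figure D1:**
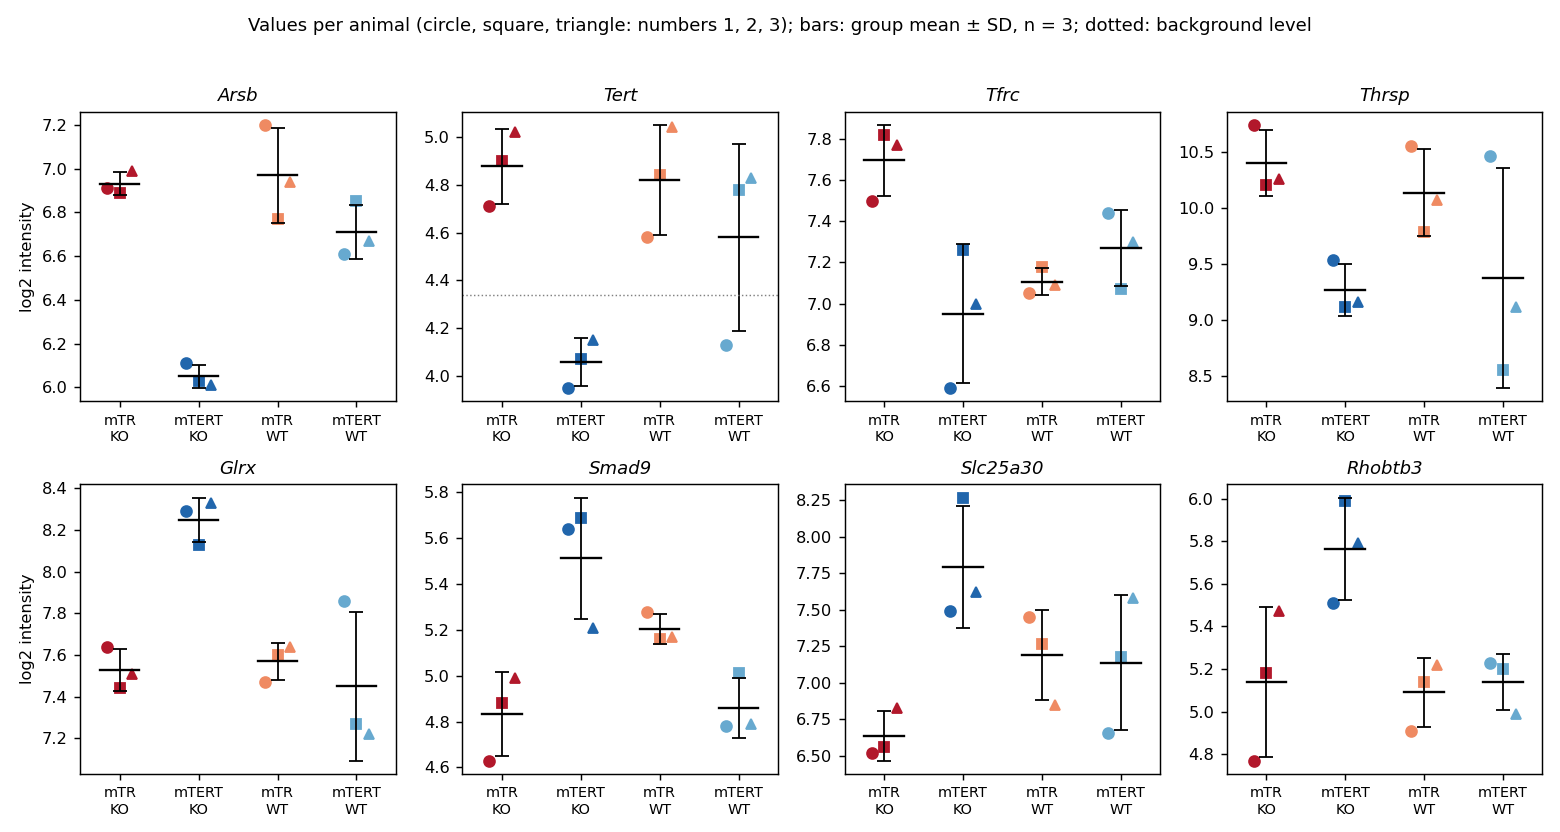
Log2 intensity (vertical axis) of 8 genes in each animal of the 4 groups, with circles, squares and triangles for arrays numbered 1, 2 and 3, bars for the mean ± SD (n = 3) and a dotted line for the background level. For Arsb the 3 mTERT KO values lie at 6.01 to 6.11, below all 9 other arrays, and for Glrx they lie at 8.13 to 8.33, above them.

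Tert is the check of the labels on the protein side. Its probe read 4.71, 4.90 and 5.02 in mTR KO 1 to 3 and 3.95, 4.07 and 4.15 in mTERT KO 1 to 3. The groups did not overlap, and all mTERT KO values lay under the background level, so Tert was not detected there and no fold is given. The difference was 0.82 (SE 0.183, n = 3 a group), with an adjusted p of 1 by limma and 0.085 with the number block. Between WT groups the difference was 0.24 (SE 0.183). Tert was at 4.58, 4.84 and 5.04 in mTR WT and at 4.13, 4.78 and 4.83 in mTERT WT, so mTERT WT 1 also lay under background and within the range of the mTERT KO arrays. In that litter KO minus WT was -0.18, and the probe does not separate the labels there. Terc could not serve as a check of the mTR label: its probe read 4.33, 4.18 and 3.87 in mTR KO and 4.48, 4.17 and 4.23 in mTERT KO, with means of 4.13 and 4.29 that both lay under background.

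Arsb, which encodes the lysosomal enzyme arylsulfatase B, gave the smallest p. It read 6.91, 6.89 and 6.99 in mTR KO and 6.11, 6.03 and 6.01 in mTERT KO. The spread within each KO group (SD 0.0503 and 0.0516) was small beside the difference of 0.88 (SE 0.115, 1.84-fold), for which limma gave an adjusted p of 0.167, and 0.085 with the block. A second Arsb probe also separated the groups, at 6.02, 5.86 and 5.91 against 5.5, 5.12 and 5.28, a difference of 0.63 (SE 0.134). In WT the first probe differed by 0.26, with overlap between the lines. Set against WT littermates, Arsb differed by -0.04 in the mTR line and by -0.66 in the mTERT line, so the mTERT KO arrays were the ones that stood off. The other sulfatase and lysosomal hydrolase genes of the list, such as Ids (-0.23, SE 0.145) and the cathepsin gene Ctsb (-0.20, SE 0.0983), lay close to 0 or below it: 15 of 17 members were below 0, with a median of -0.065.

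Tfrc, the transferrin receptor through which cells take up iron, had the smallest p on the higher side after Arsb. It read 7.50, 7.82 and 7.77 in mTR KO and 6.59, 7.26 and 7.0 in mTERT KO, with no overlap. The difference was 0.74 (SE 0.164, 1.68-fold, limma adjusted p 1), and the WT groups differed by -0.16. Against WT littermates Tfrc was at 0.59 in the mTR line and -0.32 in the mTERT line. Iron handling genes were spread around 0, with 8 of 21 above it, Tfrc among the 8. Slc11a2, an iron transporter of endosomes, was at 0.30 (SE 0.162) and Slc40a1, the iron exporter ferroportin, at -0.48 (SE 0.238). The KO groups overlapped for both of these transporters.

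A further 9 genes completed the higher side under the naming rule, each with no overlap between the KO groups, which the rule fixes, and a limma adjusted p of 1. Mvd, an enzyme of the mevalonate pathway, was at 0.48 (SE 0.152), Abhd6, a monoacylglycerol lipase gene, at 0.41 (SE 0.106), and Ears2, a mitochondrial glutamyl-tRNA synthetase gene, at 0.31 (SE 0.0902). The kinase gene Eef2k, which slows translation elongation, was at 0.32 (SE 0.0939), and its other probe gave 0.25 with both KO means below background. The remaining 5 were Slc18b1 (0.42), Zfp983 (0.44), Zfp345 (0.48), Mien1 (0.38) and Nyx (0.36), and the mTERT KO mean of Zfp345 was below background. For Zfp983 and Abhd6 the WT groups did not overlap either, at 0.25 and 0.31.

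On the lower side Slc25a30, which encodes a mitochondrial carrier, had the largest difference of the 12 genes taken by p among those without overlap. It read 6.52, 6.56 and 6.83 in mTR KO and 7.49, 8.27 and 7.62 in mTERT KO, a difference of -1.16 (SE 0.255, 2.23-fold lower, limma adjusted p 1). Both lines contributed: KO minus WT was -0.55 in the mTR line and 0.65 in the mTERT line, while the WT groups were 0.05 apart. Smad9, whose protein carries BMP signals to the nucleus, had the same form, at 4.63, 4.88 and 4.99 against 5.64, 5.69 and 5.21 and a difference of -0.68 (SE 0.141). Here the WT groups did not overlap in the opposite direction, at 0.35. Its KO minus WT values were -0.37 and 0.66.

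Glrx, the glutaredoxin gene whose product removes glutathione from proteins, read 7.64, 7.44 and 7.51 in mTR KO and 8.29, 8.13 and 8.33 in mTERT KO. The difference was -0.72 (SE 0.154, 1.65-fold lower, limma adjusted p 1), with -0.04 against WT in the mTR line and 0.80 in the mTERT line. Rhobtb3, which encodes a Golgi-linked ATPase, read 4.77, 5.18 and 5.47 against 5.51, 5.99 and 5.79, a difference of -0.62 (SE 0.179) with KO minus WT values of 0.05 and 0.62. For both genes the mTR KO mean was thus near that of its WT littermates. Txnip, which binds thioredoxin, was also lower without overlap, at -0.39 (SE 0.181), and Prdx2, a peroxide-reducing enzyme gene, was higher without overlap, at 0.22 (SE 0.0955). Over the 17 glutaredoxin and thioredoxin genes the median was 0.00266.

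The other 8 genes on the lower side were the histone gene H4c6 (-0.54), Pcdh1 (-0.48), Naa40 (-0.47), Clec9a (-0.45), Zkscan17 (-0.40), Phc3 (-0.38), Ptpn23 (-0.37) and Akr1b8 (-0.34), with SE values of 0.0856 to 0.144. Naa40 encodes an acetyltransferase of histone N-termini and Phc3 a Polycomb protein. The second probe of Phc3 gave only -0.05, so the Phc3 probes disagree. Clec9a, a receptor gene of dendritic cells, had an mTR KO mean of 4.12, under background, and differed between the WT groups in the same direction and without overlap (-0.35). Ptpn23 and Akr1b8 also separated the WT groups in that direction, at -0.09 and -0.15.

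**Figure D2:**
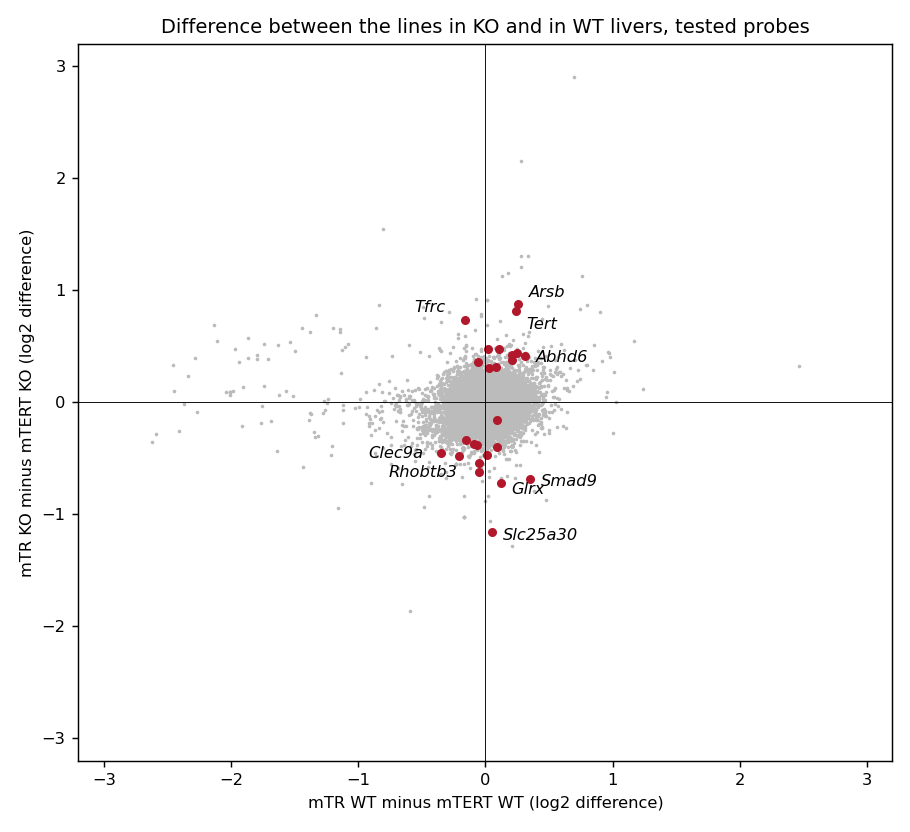
Each tested probe by its mTR WT minus mTERT WT difference (horizontal axis, log2) and its mTR KO minus mTERT KO difference (vertical axis, log2), with genes named by the rule in red. Muscle genes, bright on 2 of the 3 mTERT WT arrays, lie far to the left, and Smad9 lies at 0.35 in WT and -0.68 in KO.

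The chromosomes of the named genes were counted as well. Of the 24 genes named above, the 12 of smallest p in each direction among those without overlap and with a KO mean above background, 5 (20.8%) lay on chromosome 13, the chromosome of Tert: Tert, Arsb, Glrx, Rhobtb3 and H4c6. That chromosome held 536 of 14148 tested genes (3.79%). Tert, the gene deleted in mTERT KO, is itself among the 5. This count was made after the genes were seen, and no test was run on it. Distances from Tert were counted in the RefSeq gene order of GRCm38.p6, over genes named by a probe on the array only. Glrx lay 24, Rhobtb3 25 and Arsb 77 such genes from Tert, all on the same side, and H4c6 375 away on the other. Among the 50 such genes on each side of Tert 75 were tested, and 4 of them (5.33%) had no overlap between KO groups, beside 5.9% of all probes. At an unadjusted p under 0.05 by limma there were also 4 of the 75 (5.33%), beside 1.9% of all probes. Between the WT groups 7 (9.33%) of these neighbours had no overlap, beside 5.95% of all probes. The neighbours without overlap between the KO groups were Glrx, Rhobtb3, Lrrc14b (0.143, SE 0.0928) and Sdha. Both KO means of Lrrc14b were under background, at 4.28 and 4.13. Sdha, a succinate dehydrogenase subunit gene 15 genes from Tert, read 10.51, 10.86 and 10.90 in mTR KO and 10.11, 10.46 and 10.38 in mTERT KO (0.44, SE 0.164).

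Terc lies on chromosome 3, which held 2 of the 24 genes (8.33%), beside 4.7% of tested genes. They were Smad9 and Phc3, at 376 and 468 genes from Terc, counted in the same way. Around Terc 75 of 100 neighbours were tested and 8 (10.7%) had no overlap between the KO groups, against 3 (4%) between the WT groups, beside the same 5.9% and 5.95% of all probes. The counts around Tert ran the other way, and neither contrast was tested. At an unadjusted p under 0.05 by limma there were 2 of the 75 Terc neighbours. Txnip was 5 genes away. Rfx5, a transcription factor gene for MHC class II, lay 50 genes away and was at -0.25 (SE 0.106, limma adjusted p 1). The medians over all 100 neighbours were 0.0209 for Tert and -0.0228 for Terc, near the 0.00517 of all named genes.

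Genes of telomerase and of telomere protection were centred near 0, and among those named the KO groups did not overlap for Tert and Parn. Of 12 telomerase holoenzyme genes 6 were above 0 and 6 below, with a median of 0.00223. Ruvbl2, an ATPase that helps assemble the complex, was at 0.22 (SE 0.128). Parn, a nuclease that trims the ends of the RNA part, was at -0.26 (SE 0.109) without overlap, and the WT groups did not overlap either (-0.16). Of 12 shelterin and CST genes, whose proteins cap chromosome ends, 8 were below 0, at a median of -0.0466. The most distant by p was Pot1b, which binds single-stranded telomere DNA, at -0.20 (SE 0.109), followed by Acd (-0.10) and Terf2 (-0.12).

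Lists that telomere damage would touch follow. The 26 p53 targets had 11 members above 0 and a median of -0.0186, with the death receptor gene Fas at 0.27 (SE 0.115, no overlap) and Plk3 at -0.70 (SE 0.476). The 27 genes of DNA break signalling and repair had 13 above 0 and a median of -0.00846, with the kinase gene Atm at -0.34 (SE 0.176), the histone variant gene H2ax at -0.25 (SE 0.143) and the ligase gene Lig4 at 0.25 (SE 0.148). Of 25 proliferation genes 20 were below 0, at a median of -0.112, beside -0.0734 in WT. By array number the medians were 0.0538, -0.125 and -0.257. Among them Rrm2, a ribonucleotide reductase subunit gene, was at -0.32 (SE 0.118) and Cdk1, the mitotic kinase gene, at -0.20 (SE 0.104), and only 14 of the 25 had a KO mean above background. No member of these lists passed by limma (adjusted p 1 for each gene named here).

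**Figure D3:**
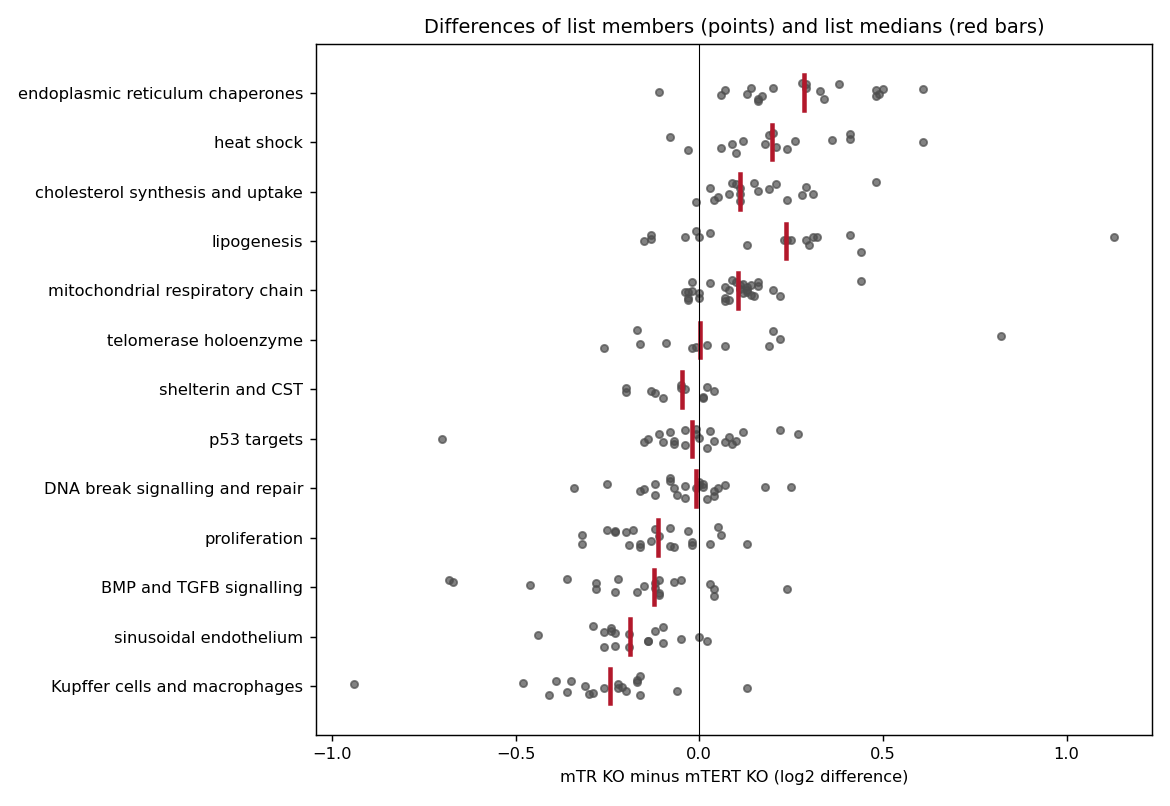
Differences between the KO groups (horizontal axis, log2) of the tested members of 13 gene lists, with 1 point a gene and red bars at the list medians. Endoplasmic reticulum chaperones sit furthest to the right, at a median of 0.284, and Kupffer cell genes furthest to the left, at -0.242.

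The endoplasmic reticulum (ER) chaperones had the highest median among lists of liver genes. These proteins fold secreted proteins, of which hepatocytes make large amounts, and their genes are induced together when unfolded proteins build up, through ATF6 and XBP1. Of 20 genes 19 were above 0, with a median of 0.284, beside 10342 of 19938 named genes above 0 (median 0.00517) and 4396 of 10864 named genes above background (median -0.0312). No member passed, and 3 had no overlap in the higher direction, in which 2.63% of all probes had none. The mean of the 20 genes was 9.30, 9.67 and 9.37 in mTR KO and 9.22, 9.25 and 9.05 in mTERT KO. The list mean of mTR KO 1 thus lay only just over the highest mTERT KO array. By array number the median difference was 0.0919, 0.419 and 0.326. The WT groups differed in the opposite direction, at a median of -0.0574, with means of 9.27, 9.41 and 9.26 in mTR WT and 9.48, 9.47 and 9.14 in mTERT WT. The highest WT means were on the arrays that held pancreas acinar genes. Acinar means there were 6.58 in mTR WT 2, 6.97 in mTERT WT 1 and 8.59 in mTERT WT 2. In KO, mTR KO 1, with an acinar mean of 10.9, had the lowest chaperone mean of its group. The part of pancreas RNA in these values was not tested.

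A sequence shared by many of these genes is the ER stress response element, CCAAT, any 9 bases and CCACG, to which NF-Y binds at the first part and ATF6 at the last. It was searched on both strands in the 250 bases before the gene start in RefSeq promoters of GRCm38.p6. It was present in 37 of 32851 promoters (0.113%) and in 8 of the 18 chaperone genes with a promoter in the table (44.4%). One share counts promoters and the other genes. The motif was taken as one that many of these genes share, so the higher share among them follows from that choice and is not a test. The 9 sites are shown 5′ to 3′ in the direction of the motif because the list had the highest median among lists of liver genes, with the fixed letters in capitals:
Hspa5: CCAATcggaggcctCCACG
Calr: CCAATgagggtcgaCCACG
Hsp90b1 upstream site: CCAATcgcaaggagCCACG
Hsp90b1 downstream site: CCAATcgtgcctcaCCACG
Canx: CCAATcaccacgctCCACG
Pdia6: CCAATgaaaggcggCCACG
Dnajc3: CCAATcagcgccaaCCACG
Creld2: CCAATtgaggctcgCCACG
Syvn1: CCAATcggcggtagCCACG

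The site of Hspa5 began 65 bases before the gene start and that of Pdia6 98 bases before it. Their windows are shown whole, both from the + strand, at chr2:34771840-34772089 and chr12:17266339-17266588, with the same capitals:
Hspa5: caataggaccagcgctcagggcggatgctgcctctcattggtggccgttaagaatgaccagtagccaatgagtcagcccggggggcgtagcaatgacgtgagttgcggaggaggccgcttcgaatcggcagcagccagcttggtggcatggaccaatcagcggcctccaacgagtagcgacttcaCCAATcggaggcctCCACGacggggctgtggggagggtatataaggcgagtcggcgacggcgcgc
Pdia6: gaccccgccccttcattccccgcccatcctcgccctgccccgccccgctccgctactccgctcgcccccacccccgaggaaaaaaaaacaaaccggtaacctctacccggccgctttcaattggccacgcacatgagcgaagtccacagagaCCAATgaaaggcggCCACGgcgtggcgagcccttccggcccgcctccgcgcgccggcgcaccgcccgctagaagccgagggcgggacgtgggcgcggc

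Hspa5, the main ER chaperone BiP, read 10.84, 11.44 and 11.02 in mTR KO and 10.86, 11 and 10.56 in mTERT KO. The groups overlapped through array 1, and the difference was 0.29 (SE 0.177). Pdia6, a disulfide isomerase, read 9.86, 10.27 and 10.20 against 9.74, 9.84 and 9.86, a difference of 0.29 (SE 0.115). Of the other genes that hold the motif, Creld2 was at 0.61 (SE 0.348), Syvn1 at 0.49 (SE 0.44), Hsp90b1 at 0.16, Dnajc3 at 0.16, Calr at 0.13 and Canx at 0.07. Single arrays moved these values: Creld2 was at 0.23 and Hsp90b1 at 0.01 without mTR KO 2, Syvn1 at 0.10 without mTERT KO 3. Over all alternatives Creld2 ran from 0.23 to 0.92, Syvn1 from 0.10 to 0.97 and Hsp90b1 from 0.01 to 0.33. The values of Canx were -0.04 without mTR KO 2 and 0 without mTERT KO 1. Genes with and without the motif were not compared, and a match describes the sequence only.

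Hyou1, a large chaperone of the ER lumen, read 9.12, 9.59 and 8.98 in mTR KO and 8.87, 8.87 and 8.47 in mTERT KO, with no overlap and a difference of 0.50 (SE 0.193). Against WT littermates it was at 0.34 in the mTR line and -0.41 in the mTERT line. Of those WT arrays, mTR WT 2, mTERT WT 1 and mTERT WT 2 held pancreas acinar genes. Sdf2l1, a co-chaperone gene, was at 0.48 (SE 0.205), and Sec61b, a subunit gene of the protein channel of the ER, at 0.34 (SE 0.129), both also without overlap. Xbp1 was the member below 0, at -0.11 (SE 0.19). Each had an adjusted p of 1 by limma.

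**Figure D4:**
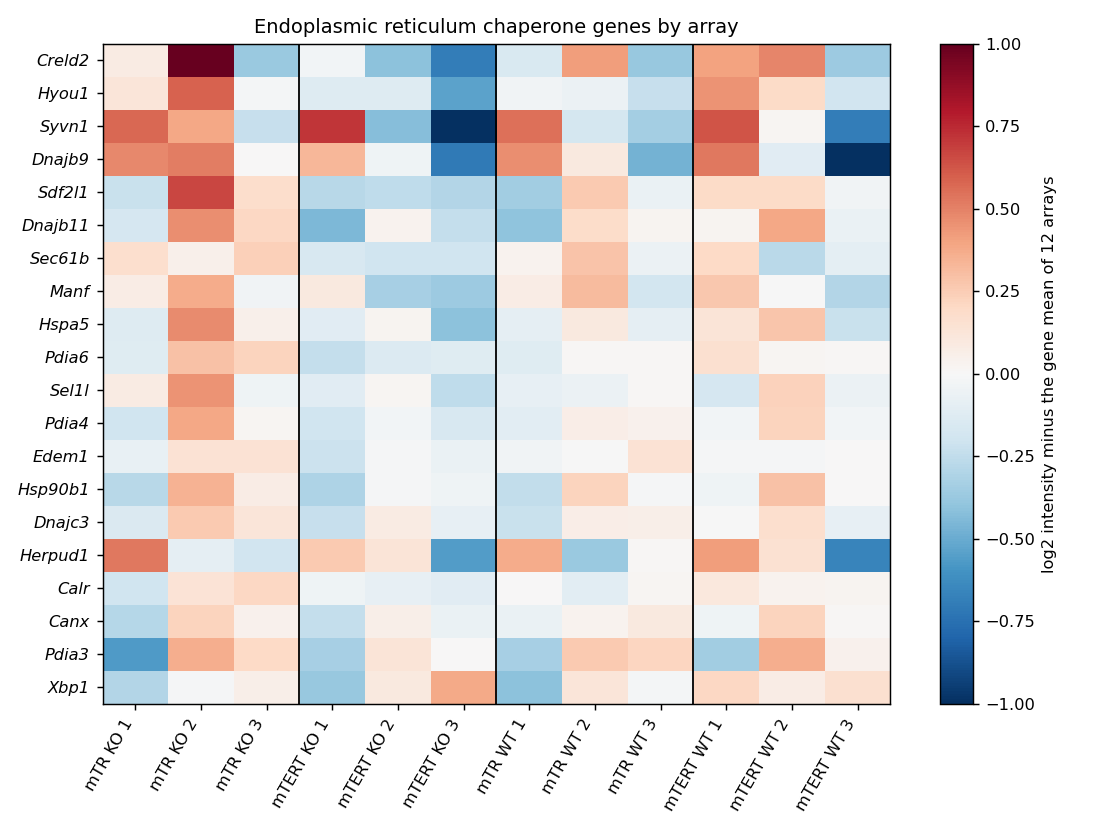
Log2 intensity of 20 ER chaperone genes (rows) on the 12 arrays (columns) minus the mean of each gene, with red for higher and blue for lower values and colours that stop at 1 in either direction. The column of mTR KO 2 is the reddest, at a list mean of 9.67, and that of mTERT KO 3 is among the bluest, at 9.05.

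Heat shock genes, the cytosolic counterpart, were above 0 in 14 of 16, with a median of 0.197, beside a WT median of 0.136. By array number the medians were -0.112, 0.34 and 0.296, so the number 1 arrays did not share the direction. Hsp90aa1 read 10.10, 11.13 and 10.47 in mTR KO and 10.10, 10.24 and 10.14 in mTERT KO, a difference of 0.41 (SE 0.24) with overlap. Its partners Hspa4l and Fkbp4 were at 0.41 (SE 0.227) and 0.36 (SE 0.181).

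Genes of fat synthesis were above 0 in 13 of 18, at a median of 0.236, and 4 of the 18 had no overlap in the higher direction (2.63% of all probes). Thrsp, a lipogenic gene induced by thyroid hormone and carbohydrate, read 10.74, 10.20 and 10.26 in mTR KO and 9.53, 9.11 and 9.16 in mTERT KO. The difference was 1.13 (SE 0.39, 2.19-fold, limma adjusted p 1). Fasn, the fatty acid synthase gene, read 9.78, 9.75 and 9.60 against 9.40, 9.32 and 9.08, a difference of 0.44 (SE 0.254). The list differed as much between the WT groups, at a median of 0.276, with Thrsp at 0.76 and Me1, the malic enzyme gene, at 0.66 in WT and 0.31 in KO.

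Cholesterol synthesis genes were above 0 in 18 of 19 but with a median of only 0.112, beside 0.0758 in WT. Over the alternatives the median ran from 0.0112 to 0.388, and it was -0.085 in the number 1 pair and 0.292 in the number 3 pair. Fdps and Fdft1, consecutive enzymes of the pathway to squalene, were at 0.31 (SE 0.234) and 0.28 (SE 0.227). Over the alternatives Fdps ran from 0.09 to 0.51 and Fdft1 from 0.06 to 0.59. The sterol exporter genes Abcg8 and Abcg5, of the bile acid and transport list, lay on the other side at -0.65 (SE 0.247) and -0.43 (SE 0.203), both without overlap. Over the 21 genes of that list the median was -0.051. Genes of the mitochondrial respiratory chain were above 0 in 24 of 31 (median 0.105), and the WT median was 0.103. Besides Sdha, Ndufb5 of complex I was at 0.20 (SE 0.111) and Cox4i1 of complex IV at 0.16 (SE 0.0878).

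The Kupffer cell, endothelial and stellate cell lists had medians below 0, though no member passed. Of named genes above background, 6468 of 10864 were below 0 as well (median -0.0312). Other cell lists were mixed. Medians were 0.123 for bile duct, 0.0799 for MHC class II, 0.0649 for B and plasma cells and 0.00238 for neutrophils. They were -0.0395 for T and NK cells and -0.00142 for erythroid genes. Few members of some of these lists had a KO mean above background. They were 2 of 10 for B and plasma cells, 2 of 15 for neutrophils and 3 of 15 for T and NK cells. For erythroid genes they were 3 of 6, for bile duct 7 of 11 and for MHC class II 5 of 8. Of 20 Kupffer cell and macrophage genes 19 were below 0, with a median of -0.242, and 4 had no overlap in the lower direction (3.26% of all probes). Marco, a scavenger receptor gene of macrophages, read 4.52, 4.55 and 4.29 in mTR KO and 4.71, 4.94 and 6.52 in mTERT KO, so its difference of -0.94 (SE 0.456) rests largely on mTERT KO 3, without which it was -0.37. Lyz2, the lysozyme gene of myeloid cells, read 8.12, 8.12 and 8.15 against 8.48, 8.21 and 8.87 (-0.39, SE 0.182). The WT groups differed likewise, at a median of -0.327, and the list mean was highest in the number 3 arrays of the mTERT line, 7.48 in KO and 7.54 in WT, against 6.79 to 7.29 elsewhere. In bulk tissue, fewer cells of a type and less RNA per cell cannot be told apart.

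Of 18 sinusoidal endothelial genes 16 were below 0, at a median of -0.189 against -0.0257 in WT. Flt4, a vascular growth factor receptor gene, read 5.76, 5.19 and 5.42 in mTR KO and 5.81, 5.81 and 6.06 in mTERT KO (-0.44, SE 0.18). Stab2, a scavenger receptor gene of these cells, was at -0.29 (SE 0.169) with overlap and Tie1 at -0.23 (SE 0.117) without. The medians by number were -0.0184, -0.278 and -0.261. Stellate cell and fibroblast genes were below 0 in 12 of 15 (median -0.154), with the matrix gene Dcn at -0.22 (SE 0.12), Colec11 at -0.23 (SE 0.145) and Pdgfrb at -0.23 (SE 0.148). The hepatocyte identity list was centred at -0.0387, and 15 of its 19 genes were below 0.

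Of 21 genes of BMP and TGFB signalling, the pathway of Smad9, 17 were below 0, with a median of -0.123. Tgfb1, the ligand gene, was at -0.36 (SE 0.182) without overlap. Id3, a target of these signals, read 4.75, 5.43 and 4.97 in mTR KO and 5.41, 5.16 and 6.61 in mTERT KO (-0.67, SE 0.434). The value of Id3 was -0.23 without mTERT KO 3. Spred1, which restrains Ras signalling, was at -0.33 (SE 0.118) without overlap, where the WT groups did not overlap in the opposite direction (0.24), and its list had a median of -0.0336.

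Inflammatory lists had medians nearer 0 between the KO groups than between the WT groups, a contrast that was not tested. Acute phase genes had a median of -0.0698 in KO and -0.42 in WT, and interferon response genes -0.0247 and -0.404. Their mTERT WT means reached 10.3 (acute phase, number 1) and 7.10 (interferon, number 3), against 8.75 to 9.31 and 5.89 to 6.30 over the KO arrays. The KO comparison does not use those WT arrays other than for the estimate of spread.

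The difference between the KO effects, (mTR KO minus mTR WT) minus (mTERT KO minus mTERT WT), asks whether the lines part more in KO than in WT. Limma called 0 of 20197 probes (0%), with 293 (1.45%) at an unadjusted p under 0.05, and 0 with the number block, with 1024 (5.07%). At 783 probes (3.88%) all 3 litters of one line lay on one side of WT and all 3 of the other on the opposite side. The smallest adjusted p was 1, and 0.896 with the block. Of the genes above, Slc25a30 was at -1.21 (SE 0.361), Smad9 at -1.03 (SE 0.199), Tfrc at 0.90 (SE 0.232), Glrx at -0.84 (SE 0.218), Arsb at 0.62 (SE 0.163), Tert at 0.58 (SE 0.259) and Rhobtb3 at -0.57 (SE 0.253). For Thrsp it was 0.37 (SE 0.551). This contrast shares the KO arrays with the comparison above and is not separate evidence. Without mTERT WT 2, the mTERT WT array free of skeletal muscle genes, limma called 30 probes, all higher, most of them muscle genes such as Ckm. The muscle mean was 6.77 and 6.36 in the remaining mTERT WT arrays and 3.86 to 4.46 over the KO arrays.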

How the data were processed

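Liver RNA of 12 mice was hybridised to 1 array each. The authors deposited normalized log2 intensities, 1 column per array; PLIER, Affymetrix Expression Console and GCOS 1.4 appear in the submitters' processing notes, without their roles. The base 2 was inferred from the values; normalization method, added constant and filters are not given in the sources used here. Probes were named through the platform annotation (21789 with 1 symbol, 1621 with several, 5443 with none) and 21698 were matched to RefSeq. Each of 19938 genes was read from 1 probe, the brightest on average.

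With limma 3.58.1 under R 4.3.3, lmFit of 4 group means over 12 arrays and default eBayes gave the contrasts, two-sided, with Benjamini-Hochberg adjustment over 20197 probes and a threshold of 0.05. SE values are moderated. The script was tested on simulated data. The KO animals are separate animals, but p-values measure only the spread between these few. The array number was tried as a block: after removal of group means, same-numbered KO arrays correlated at 0.783, 0.544 and 0.416, each over 0.1. Arrays 2 and 3 also correlated across numbers (0.558 and 0.524), and array 1 did not (-0.56 to -0.688).

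Named were Tert, Terc, 12 genes in each direction, ordered by p, from those whose KO groups did not overlap and with a KO mean above background, up to 3 members per list by p, and neighbours of Tert and Terc without overlap and with an unadjusted p under 0.05; olfactory and vomeronasal receptors and predicted genes were counted, not named. Creld2, Syvn1, Calr, Canx, Hsp90b1, Dnajc3 and Hspa5 were named for their motif, and Fasn, Sdf2l1, Xbp1, Lrrc14b, some cell type markers and the genes with a 2-fold difference after their values were seen. The members and lists were chosen with earlier results of these data known. Alternatives are listed under the sensitivity of the results.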

Additional observations from a re-analysis of the deposited data

Results flagged for a closer look

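For 14 of 105 genes compared, KO was above WT in all 3 litters of one line and below in all 3 of the other. Over all tested probes this was so for 783 of 20197 (3.88%). Many of the 105 genes had been named by their difference between the KO groups, and the litter values use the same KO arrays. That choice favours opposed litters, so the 14 of 105 cannot be read as an excess over all probes. The difference itself, the mTR KO effect minus the mTERT KO effect, was tested by limma for each, and every adjusted p was 1. It was positive for the ER genes Creld2 (0.83), Hyou1 (0.75) and Sdf2l1 (0.65), for the zinc finger gene Zfp345 (0.46) and for Eef2k (0.24). Pancreas acinar genes differed between KO and WT in litters 1 and 2 of both lines and hardly in litter 3. Their part in the litter values was not tested. The difference between the KO effects was negative for Slc25a30 (-1.21), Smad9 (-1.03), Zkscan17 (-0.49), Naa40 (-0.48), H4c6 (-0.48), Flt4 (-0.43), Id3 (-0.36), Phc3 (-0.31) and the cyclin gene Ccnb2 (-0.14). In Smad9 the litters read -0.65, -0.28 and -0.18 in the mTR line and 0.86, 0.68 and 0.42 in the mTERT line. In Slc25a30 they read -0.93, -0.71 and -0.02 against 0.83, 1.09 and 0.04, so litter 3 hardly contributed.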

How the results depend on the processing

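The count of calls stayed at 0 under 48 of 50 alternatives for the KO comparison and the difference between KO effects together. These were other fits, and the main limma fit read at an adjusted p under 0.10. Among them were quantile normalization, median centring, other filters and 1 probe per gene. The replicate block changed no call (0 calls, also without the 4 arrays numbered 1, an alternative chosen after seeing the data). The exceptions were array weights, with 1 call in the KO comparison (Arsb at 0.90, limma adjusted p 0.015), and the fit without mTERT WT 2, with 30 calls in the difference between KO effects. Leaving out 1 array gave 0 to 0 calls in the KO comparison and 0 to 30 in the difference. At an adjusted p under 0.10 the KO comparison had 0 calls as reported, 3 with the block (Tert and both Arsb probes), 1 with the block on the 6 KO arrays alone (Thrsp, limma adjusted p 0.0836), 5 without the arrays numbered 1 (Arsb and 4 unnamed probes), and Arsb alone with array weights, with 1 probe per gene and without mTR WT 1. The difference had 33 without mTERT WT 2. The smallest adjusted p over alternatives was 0.015 to 1 in the KO comparison and 0.00179 to 1 in the difference. Of gene differences, 2500 kept their sign and side and 15 turned. Acta1 was at 0.25 with array weights, 0.63 without the arrays numbered 1 (with the replicate block also 0.63), and between -0.86 and 0.63 over fits that left out 1 array or the arrays numbered 1 (0.28 without mTERT KO 1, 0.01 without mTR KO 1). Reg1 was at -0.20 without the arrays numbered 1 (with the block also -0.20) and -1.61 without mTR KO 1, and Ckm at 0.10 (with the block also 0.10). Leaving out 1 array took Reg1 from -1.61 to 2.19, Cuzd1 from -0.69 to 1.83, Try4 from -0.85 to 1.65 and Ins2 from -0.13 to 0.72, each lowest without mTR KO 1. Canx lay between -0.04 (without mTR KO 2) and 0.21, and was at 0 without mTERT KO 1. These are pancreas and muscle genes and 1 near 0. List medians ranged from 0.176 to 0.332 for ER chaperones, 0.123 to 0.262 for lipogenesis, 0.0842 to 0.325 for heat shock, -0.348 to -0.12 for Kupffer cells and -0.31 to -0.104 for endothelium. The number of arrays limits precision, and differences near background are not measured folds.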

Other observations

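At 17 probes the KO means differed by 2-fold or more, and the groups did not overlap at 2 of them, Thrsp and Slc25a30. The others varied within groups. Bcl6, a repressor gene that in liver responds to growth hormone, read 8.61, 7.08 and 8.62 in mTR KO and 5.92, 6.06 and 7.68 in mTERT KO (1.55, SE 0.86). Socs2, a growth hormone target gene, read 4.73, 4.74 and 6.36 against 4.63, 8.39 and 8.39 (-1.86, SE 0.856), and with single arrays left out it lay between -3.12 and -1.23. Onecut1, a liver transcription factor gene, read 5.30, 5.32 and 6.57 against 5.78, 8.13 and 7.12 (-1.28, SE 0.616). Abcd2, a peroxisomal fatty acid transporter gene, read 5.33, 6.42 and 5.10 against 4.74, 7.62 and 7.68 (-1.06, SE 0.869). Each had a limma adjusted p of 1.

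Of the 9 probes at least 2-fold higher, 7 had no gene name. Probe 10582888 read 5.39, 8.56 and 8.47 in mTR KO and 5.38, 5.41 and 5.15 in mTERT KO (2.16, SE 0.765), so mTR KO 2 and 3 were high and mTR KO 1 was not. Probe 10485357 read 6.87, 11.71 and 11.80 against 7.73, 6.82 and 7.11 (2.91, SE 1.21). Of the 8 probes at least 2-fold lower, 4 unnamed probes held identical values on every array (-1.03) and count as 1 feature.

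Dim features leaned the other way from expressed ones. Of 1027 olfactory receptor genes 736 were above 0 (median 0.0558), of 287 microRNA genes 206 (median 0.0484), and of 9074 named genes below background 5946 (median 0.0326), whereas 6468 of 10864 genes above background were below 0. Small nucleolar RNAs differed by number and not between the KO groups: their mean was 6.56 and 6.58 in mTR KO 1 and mTERT KO 1 and 5.18 to 5.34 in the other KO arrays, with a median difference of 0.000227. Pancreas acinar genes had a median of 0.489, 1.49 in the number 1 pair and -0.138 in the number 3 pair.

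Other lists lay near 0. Circadian clock genes had a median of 0.054, with Nr1d2 at -0.58 (SE 0.31) and Cry1 at 0.39 (SE 0.261). Fatty acid oxidation genes under PPARA had a median of 0.0345, with Cpt1a at -0.30 (SE 0.146). Medians were 0.0268 for pericentral genes, 0.0465 for periportal genes, 0.0348 for amino acid stress genes, 0.0391 for proteasome genes, 0.042 for ribosomal protein genes and -0.0409 for complement and coagulation genes. Fasting genes had a median of -0.0429, with Pdk4 at 0.60 (SE 0.256). Replication-dependent histone genes had a median of -0.0342, with H1f1 at -0.36 (SE 0.151) and H2ac15 at -0.28 (SE 0.102), both without overlap.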
